A study of Zea mays with 6 samples.

Results

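The MYB, bZIP, homeobox and MADS transcription factor genes of maize were followed in leaves of seedlings that had met dehydration for the first or for the third time. The genes were chosen by the description that the deposited table pairs with each gene model, wherever it named a MYB, bZIP, G-box-binding, homeobox, homeodomain, knotted, MADS or bHLH protein. This gave 146 of the 39634 gene models listed, namely 75 MYB, 42 homeobox, 17 MADS, 7 bZIP and 4 bHLH genes and 1 gene for a GAMYB-binding protein, which is not itself named as a factor. The homeobox count includes knotted1 induced1, which matched through the word knotted and is not itself named a homeobox protein. A further 19801 gene models have no description, so factors among them could not be found this way.

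All seedlings were of the inbred line B73, and every library came from leaf RNA. W leaves came from plants kept in water. S1 leaves were taken at the first dehydration, 2 h of air drying at 22 °C, and S3 leaves at the third, after alternating with 22 h of full rehydration. Each condition had 2 libraries, described as independent biological samples of several plants each, so an S3 plant was also older than an S1 plant when sampled and had no watered control of its own stage in these libraries. Cycle number and age therefore cannot be told apart.

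The 4 main families bind DNA through different domains. bZIP proteins pair through a leucine zipper and read ACGT-containing elements such as the G-box and the abscisic acid (ABA) response element, and several plant bZIP factors act downstream of ABA, the hormone of water deficit. Homeodomain proteins fall into classes with separate roles, among them the HD-Zip factors of environmental and developmental responses and the KNOX and BELL factors, which pair with each other and are known from meristems. MYB proteins of the R2R3 type control phenylpropanoid, anthocyanin, wax and stress genes, and MADS proteins are best known from floral organ identity.

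Levels are given as FPKM, fragments per kilobase of transcript scaled to the mapped fragments of the library, for each library. Changes are differences of log2(FPKM + 1) ± SE from limma, a linear model fitted to all 6 libraries at once, and the added 1 makes them understate the change of low genes. A gene was tested where at least 2 libraries reached 1 FPKM and was called where the adjusted p was at most 0.05 and the change at least 2-fold, a log2 difference of 1. The deposited FPKM values do not carry the depth of each library, and no counting error is given here for low values. In whole leaf RNA, fewer cells of a type and less RNA per cell cannot be told apart.

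The libraries summed to between 568731 and 672411 FPKM, and the median distance between replicates over the genes tested, on the log2 scale, was 0.17 for W leaves, 0.20 for S1 leaves and 0.23 for S3 leaves. Over the tested MYB, bZIP, homeobox, MADS and bHLH genes it was 0.14 for W, 0.20 for S1 and 0.26 for S3. Leaf identity was plain from 22 photosynthetic genes (chlorophyll-binding proteins, the Rubisco small subunit, PEP carboxylase and NADP-malic enzyme), 21 of which reached the level for testing. Their summed level was 40319 and 24637 FPKM in W, 29623 and 29678 FPKM in S1 and 6912 and 11025 FPKM in S3, so it was lower in S3 than in the other conditions. Of 24 zein genes, which mark seed, 20 were listed at 0 in every library and the sum was between 15.5 and 25.1 FPKM. The 20 markers of dividing cells (A- and B-type cyclins, PCNA, histone H4), 13 of them at the level for testing and none at 0 throughout, summed to 509 and 366 FPKM in W, 168 and 156 FPKM in S1 and 170.2 and 198 FPKM in S3. The part of these 2 shifts in the results on the transcription factors was not tested.

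Most of these regulators were scarcely expressed in leaves. Of the 146 genes, 103 averaged under 1 FPKM in W leaves and 19 averaged over 10 FPKM. In all, 55 genes could be tested, 57 lay above 0 but under the limit, and 34 were listed at 0 in all 6 libraries. Over all 39634 gene models, 20130 could be tested and 30955 were above 0 in some library. The tested share differed by family, with 29 of 75 MYB, 14 of 42 homeobox, 3 of 17 MADS, 5 of 7 bZIP and 3 of 4 bHLH genes. A single R2R3MYB-domain gene, GRMZM2G305856, held 25.2% of the summed W level of all 146 genes, and knotted-1-like 2 held 16.2%.

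**Figure D1:**
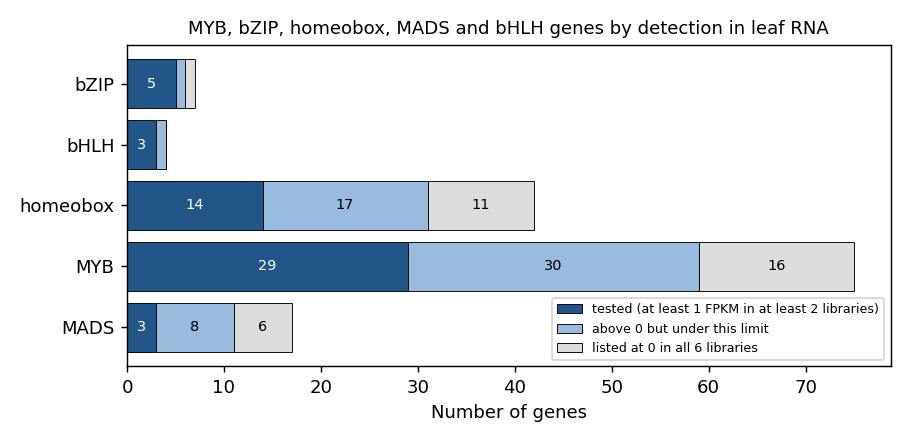
Number of genes in each family (horizontal axis, genes) that were tested, that lay above 0 FPKM but under the limit for testing, or that were listed at 0 in all 6 libraries. Tested genes are the minority among MYB (29 of 75), homeobox (14 of 42) and MADS genes (3 of 17) and the majority among bZIP genes (5 of 7).

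Nearly every call between the first stress and watered leaves was an increase. Increases also outnumbered decreases over all genes tested, with 1511 called higher and 309 lower. Between S1 and W, 9 of the 55 tested genes were called higher (16.4%, against 7.51% of all 20130 genes tested) and 1 was called lower (1.82%, against 1.54%). Between S3 and S1, 9 were called higher (16.4%, against 9.17%) and 8 lower (14.5%, against 9.22%). Between S3 and W, 15 were called higher (27.3%, against 13.3%) and 6 lower (10.9%, against 8.7%). Calls in either direction took 18.2% of the tested genes for S1 against W (all genes 9.04%), 30.9% for S3 against S1 (all genes 18.4%) and 38.2% for S3 against W (all genes 22%). Under upper-quartile, median-of-ratios or quantile scaling the split for S3 against W was 13 higher and 9 lower. Over all genes tested, these scalings called between 9.85% and 10.7% higher and between 10.1% and 10.8% lower. The median log2 difference of the tested genes was 0.27 for S1 minus W (all genes −0.01), 0.05 for S3 minus S1 (all genes 0.11) and 0.45 for S3 minus W (all genes 0.16). The 3 scalings lowered the median of all genes by up to 0.20, that for S3 minus W under upper-quartile scaling, and turned the median of the tested factors for S3 minus S1 to between −0.05 and −0.09. The 3 comparisons share libraries, so their counts are not independent.

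In all, 25 of the 55 genes were called in at least 1 comparison, 14 MYB, 6 homeobox, 4 bZIP and 1 bHLH, and no MADS gene was. In each called comparison the libraries of the 2 conditions did not overlap. The same libraries set the calls, so this is no separate support for them. The other 30 (54.5%) were called in none, against 70.9% of all genes tested. Written as the response to the first stress and then the further change of S3 relative to S1, 2 genes were +/+ (3.64%, against 0.661% of all genes tested), 1 was −/− (1.82%, against 0.328%), 1 was +/− (1.82%, against 2.64%) and 6 were +/= (10.9%, against 4.21%). Genes called at the second step but not at the first were 7 in the =/+ class (12.7%, against 8.33%) and 6 in the =/− class (10.9%, against 6.25%). No gene was −/+ or −/= (0.179% and 1.03% of all genes tested). An equals sign says that the change was not called, which does not show that there was none. Of the 55, 5 passed the limit for testing through 1 condition alone, so these had to be high there. They were GRMZM2G048295, GRMZM2G122846, GRMZM2G160840 and GRMZM2G353076 through S3 and GRMZM2G438652 through S1. GRMZM2G031323, GRMZM2G044752 and GRMZM2G051528 reached 1 FPKM only in both S3 libraries and in S1 replicate 1. These genes too would not have been tested without S3. Among the =/+ genes only GRMZM2G405094 would have been.

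**Figure D2:**
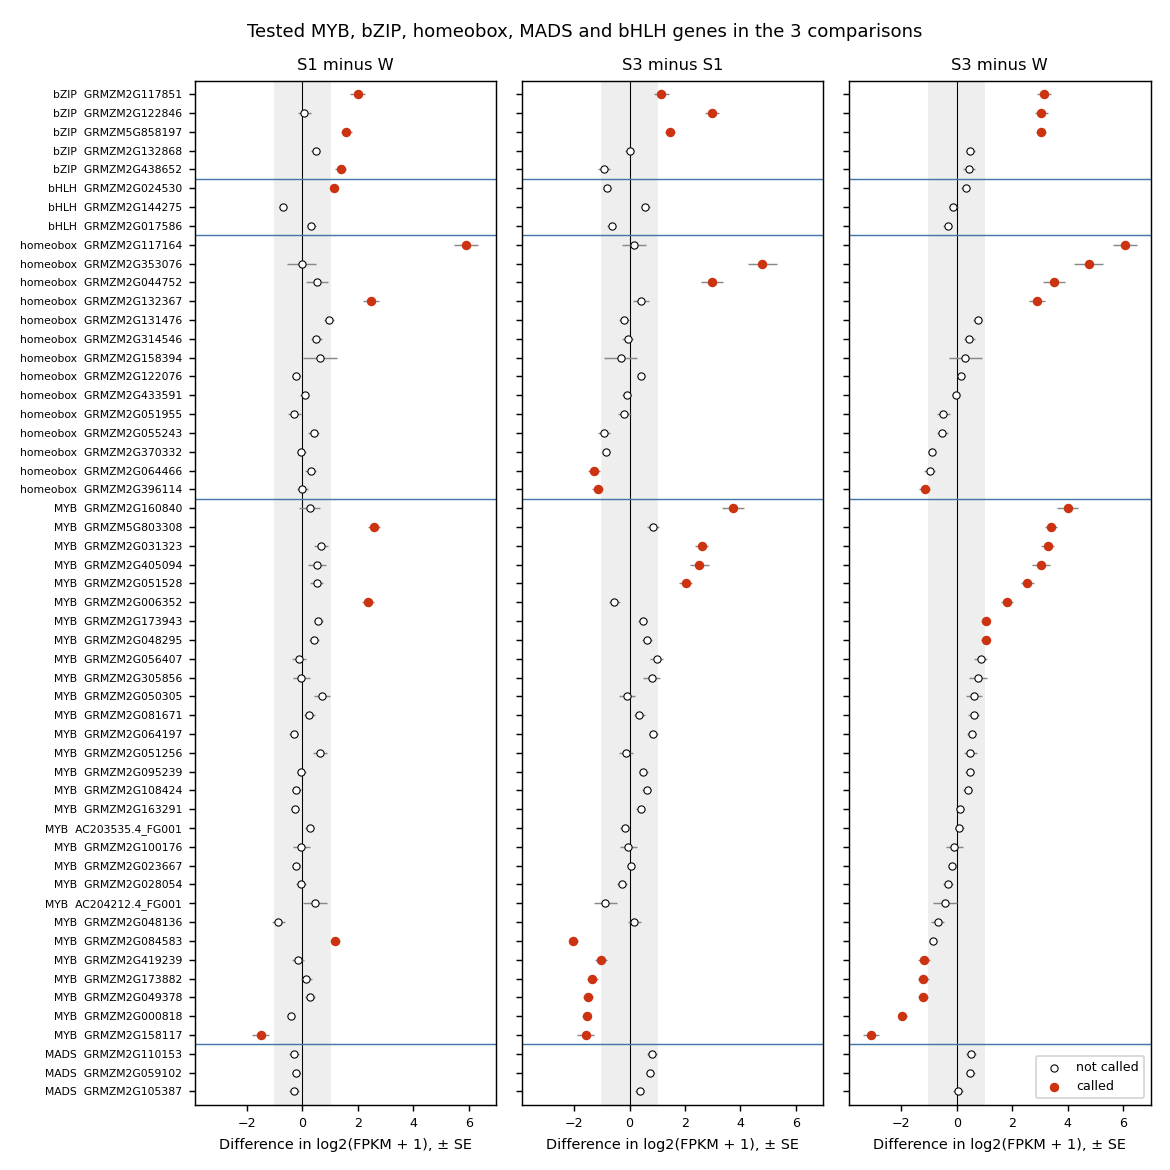
Difference of log2(FPKM + 1) (horizontal axes, bars show SE) for each tested gene of the 5 families (rows), with a panel for each comparison, called genes filled and the range under 2-fold shaded. In S1 minus W 9 called points are above 0 and 1 is below, whereas in S3 minus S1 9 are above and 8 below.

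Of the 5 bZIP genes tested, 3 were called higher in S1 than in W (7.51% of all genes tested), 3 in S3 than in S1 (9.17% of all genes) and 3 in S3 than in W (13.3% of all genes), none was called lower, and 2 were called higher at both steps. GRMZM2G122846 and GRMZM2G438652 entered the test only through the condition where they were high, which fixed the direction of their calls. The summed level of the 7 bZIP genes was 9.14 and 9.23 FPKM in W, 34.5 and 28.2 FPKM in S1 and 80.6 and 85.7 FPKM in S3, with no overlap between conditions.

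G-box-binding factor 4 (GRMZM5G858197), of a group of plant bZIP proteins that bind the G-box, had 4.95 and 5.01 FPKM in W, 19.8 and 14.5 FPKM in S1 and 52.3 and 44.6 FPKM in S3. The 3 conditions were fully separated and stepped upward. Its log2 difference was 1.59 ± 0.19 for S1 minus W (adjusted p = 0.00145), 1.45 ± 0.19 for S3 minus S1 (adjusted p = 0.00115) and 3.04 ± 0.19 for S3 minus W (adjusted p = 3.91e-05). A second gene described as G-box-binding factor 4, GRMZM2G132868, did not share this course. It had 2.34 and 2.50 FPKM in W, 4.07 and 3.48 FPKM in S1 and 3.93 and 3.70 FPKM in S3, and was called in no comparison. For S3 minus S1 its log2 difference was 0.01, with a 95% interval of −0.37 to 0.39. Reads of the 2 genes may be shared where their sequences are alike, and this was not tested.

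The gene for bZIP transcription factor1 (GRMZM2G117851) had 1.29 and 1.30 FPKM in W, 7.76 and 8.60 FPKM in S1 and 14.2 and 26.2 FPKM in S3. It too stepped upward without overlap, but the S3 replicates lay apart. The fit gave a log2 difference of 2.00 ± 0.26 for S1 minus W (adjusted p = 0.00251), 1.15 ± 0.26 for S3 minus S1 (adjusted p = 0.0125) and 3.15 ± 0.26 for S3 minus W (adjusted p = 0.000131). The second step was the less secure. Without S3 replicate 2 it was 0.73, and without either S1 replicate the adjusted p was 0.0728 or 0.0527.

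G-box-binding factor 1 (GRMZM2G122846) stood low in W and S1 and was present in S3. It had 0.465 and 0.204 FPKM in W, 0.737 and 0.122 FPKM in S1 and 9.60 and 10.4 FPKM in S3. W and S1 overlapped, and both S3 libraries were far above them. In log2 terms the difference was 2.97 ± 0.24 for S3 minus S1 (adjusted p = 0.00021), and for S1 minus W it was 0.07, with a 95% interval of −0.49 to 0.63.

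The gene GRMZM2G438652, described as a bZIP family protein, had the opposite timing. It was listed at 0 in both W libraries and had 1.87 and 1.35 FPKM in S1 and 0.172 and 0.609 FPKM in S3. The increase in S1 was called (adjusted p = 0.0054), and no fold is given against a condition listed at 0. With 2 in place of 1 added to the FPKM, the log2 difference was 0.85, under the limit for a call. For S3 minus S1 the log2 difference was −0.92 ± 0.21 (adjusted p = 0.0137), not called, although its libraries did not overlap. Without S1 replicate 2 it was −1.06 and without S3 replicate 2 −1.15, both called. With 0.1 added to the FPKM it was −1.94 and called, and S3 was called higher than W. The last 2 bZIP genes were AC186606.4_FG003, between 0.0852 and 0.421 FPKM in the 6 libraries, and GRMZM2G158313, listed at 0 throughout.

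As a reference for the bZIP changes, genes described as dehydrins, LEA proteins or type 2C protein phosphatases, which ABA-linked bZIP factors are known to act on or with, were counted. Of 22 such genes 15 were tested. Between S1 and W 7 were called higher and 0 lower, between S3 and S1 3 higher and 3 lower, and between S3 and W 8 higher and 0 lower. Over all genes tested, 7.51% were called higher and 1.54% lower for S1 against W, 9.17% higher and 9.22% lower for S3 against S1, and 13.3% higher and 8.7% lower for S3 against W. This list was not tested against all genes or against the bZIP genes.

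**Figure D3:**
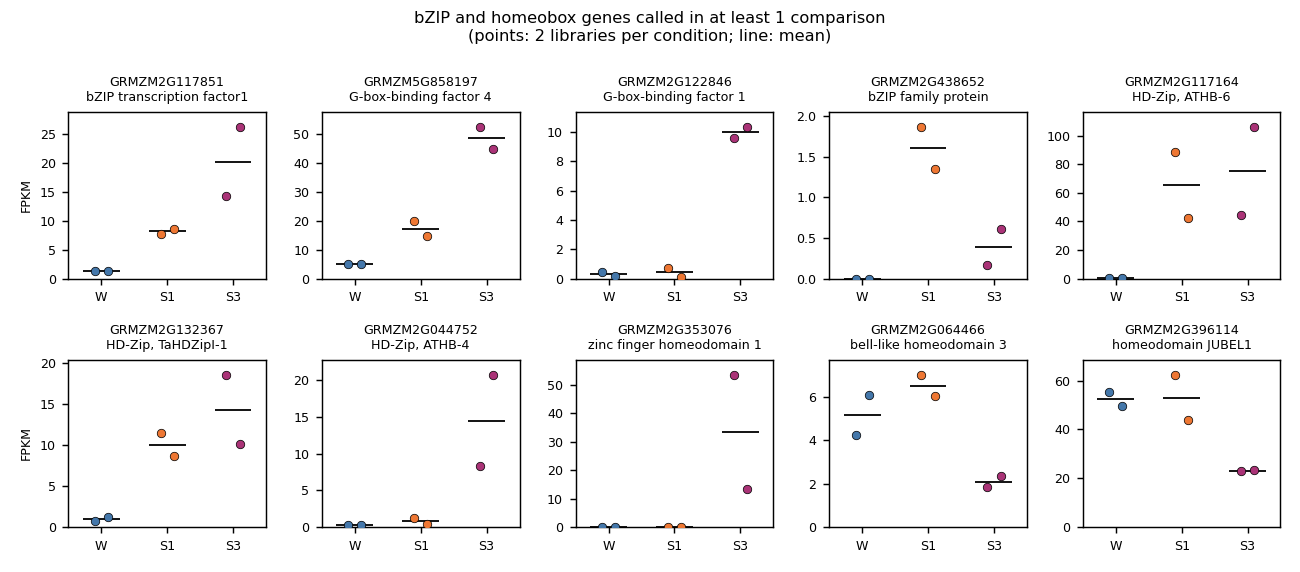
FPKM (vertical axes, linear from 0, each panel on its own scale) of the bZIP and homeobox genes with a call, with W, S1 and S3 from left to right, a point per library and a line at the mean. The first 2 bZIP genes step up at each stress, ATHB-6 lies at 42.4 to 106 FPKM in the stressed libraries, and the 2 BELL genes, bell-like homeodomain 3 and JUBEL1, are lower in S3.

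The homeobox genes are given by class, and no difference between classes was tested. HD-Zip proteins carry a leucine zipper beside the homeodomain. The summed level of the 13 HD-Zip genes was 50.04 and 49.2 FPKM in W, 149 and 95.7 FPKM in S1 and 130 and 196 FPKM in S3. A single gene, GRMZM2G117164, made up 88.7 and 42.4 FPKM of this in S1 and 44.7 and 106 FPKM in S3. In W it had 0.0432 and 0.0568 FPKM. Of the 5 tested, 2 were called higher between S1 and W (7.51% of all genes tested) and 1 between S3 and S1 (9.17%). Between S3 and W, 3 were called higher (13.3%). None was called lower in any of these comparisons (all genes 1.54%, 9.22% and 8.7%).

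The widest change among all 55 tested genes was that of the gene described as ATHB-6 (GRMZM2G117164), an HD-Zip class I factor that in Arabidopsis is a negative regulator of ABA responses. It had 0.0432 and 0.0568 FPKM in W, 88.7 and 42.4 FPKM in S1 and 44.7 and 106 FPKM in S3. It was close to absent in watered leaves and abundant in all 4 stressed libraries, in which S1 and S3 overlapped. The log2 difference was 5.89 ± 0.44 for S1 minus W (adjusted p = 0.000207) and 6.06 ± 0.44 for S3 minus W (adjusted p = 7.5e-05), and adding 0.1 in place of 1 to the FPKM raised the first to 8.68. For S3 minus S1 it was 0.16, with a 95% interval of −0.85 to 1.18, and replicates differed by more than 2-fold in S1 and in S3.

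A gene described as TaHDZipI-1, a class I factor named from wheat (GRMZM2G132367), had 0.730 and 1.20 FPKM in W, 11.5 and 8.60 FPKM in S1 and 18.5 and 10.1 FPKM in S3. Both stressed conditions were above W and overlapped with each other. The fit gave a log2 difference of 2.49 ± 0.29 for S1 minus W (adjusted p = 0.0014) and 0.42 ± 0.29 for S3 minus S1 (adjusted p = 0.281). The 2 other genes of this description stayed under the limit for testing. GRMZM2G034113 had 0.153 and 0.225 FPKM in W, 0.0501 and 0.0536 FPKM in S1 and 1.57 and 0.446 FPKM in S3, and AC233899.1_FG004 reached at most 0.286 FPKM.

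The gene described as ATHB-4 (GRMZM2G044752), of HD-Zip class II, whose Arabidopsis namesake takes part in shade responses, was called higher only in S3. It had 0.246 and 0.263 FPKM in W, 1.26 and 0.425 FPKM in S1 and 8.26 and 20.7 FPKM in S3. All S3 values were above all others, and both S1 values were above W. The gene would not have been tested without its S3 libraries. In log2 terms the difference was 2.98 ± 0.39 for S3 minus S1 (adjusted p = 0.00128) and 0.52 ± 0.39 for S1 minus W (adjusted p = 0.417). Of the other 3 genes described as ATHB-4, GRMZM2G068672 was also highest in S3, with 0 and 0.0237 FPKM in W, 0 and 0 FPKM in S1 and 1.19 and 0.774 FPKM in S3, but was too low to test.

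HAT22 (GRMZM2G131476), another class II gene, had 3.77 and 3.85 FPKM in W, 9.29 and 7.51 FPKM in S1 and 6.51 and 7.73 FPKM in S3. All stressed values were above W, yet the log2 difference of 0.96 ± 0.17 for S1 minus W (adjusted p = 0.0098) was under the 2-fold limit. Without S1 replicate 2 it was 1.10 and called. CPHB-5 (GRMZM2G122076), the HD-Zip gene with the highest level in W, ranged from 36.4 to 49.9 FPKM over the 6 libraries and was called in no comparison. Its log2 difference for S1 minus W was −0.25, with a 95% interval of −0.58 to 0.09.

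Zinc finger homeodomain (ZF-HD) proteins join a zinc finger to a plant homeodomain. Of the 5 genes, zinc finger homeodomain protein 1 (GRMZM2G353076) had 0 and 0.0613 FPKM in W, 0.0274 and 0 FPKM in S1 and 53.5 and 13.3 FPKM in S3. It was at or near 0 in 4 libraries and well expressed in both libraries of the third stress, though these differed by more than 2-fold. The log2 difference was 4.79 ± 0.52 for S3 minus S1 (adjusted p = 0.00061), and it was 7.89 with 0.1 in place of 1 added to the FPKM. The gene entered the test only through S3, which fixed the direction of its call. The second tested ZF-HD gene, GRMZM2G051955, had 1.71 and 1.21 FPKM in W, 1.50 and 0.596 FPKM in S1 and 0.802 and 0.711 FPKM in S3, and was not called. GRMZM2G089619 and GRMZM2G414844 each exceeded 1 FPKM in a single library, S1 replicate 1, with 2.17 and 2.41 FPKM.

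The 2 tested BELL genes were lower in S3 than in S1. JUBEL1 (GRMZM2G396114), named from a barley BELL gene, had 55.4 and 49.6 FPKM in W, 62.2 and 43.7 FPKM in S1 and 22.7 and 23.3 FPKM in S3. W and S1 overlapped, and both S3 values were below all the others. The fit gave a log2 difference of −1.15 ± 0.20 for S3 minus S1 (adjusted p = 0.00367) and −1.15 ± 0.20 for S3 minus W (adjusted p = 0.00279), and without S1 replicate 1 the first was −0.90 and not called.

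Bell-like homeodomain protein 3 (GRMZM2G064466) had 4.23 and 6.10 FPKM in W, 7.01 and 6.02 FPKM in S1 and 1.85 and 2.34 FPKM in S3. The order was the same. In log2 terms the difference was −1.28 ± 0.20 for S3 minus S1 (adjusted p = 0.00283), and that for S3 minus W was −0.98 ± 0.20 (adjusted p = 0.00718), just under the 2-fold limit. Without S3 replicate 2 it was −1.10 and without W replicate 1 −1.20, both called, and it was also called under all 3 scalings, at between −1.10 and −1.16. The third BELL gene, knotted interacting protein1 (GRMZM2G163761), whose product partners KNOTTED1 in maize, was listed at 0 in every library.

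The KNOX genes of maize meristems were almost silent in these leaves. Homeotic protein knotted-1 (GRMZM2G017087), the founding plant homeobox gene, had 0.0236 and 0 FPKM in W, 0 and 0 FPKM in S1 and 0.0605 and 0 FPKM in S3. Rough sheath 1 (GRMZM2G028041), liguleless 3 (GRMZM2G087741), knotted-1-like 8 (GRMZM2G135447) and knotted-1-like 10 (GRMZM2G002225) were listed at 0 in all 6 libraries, and knotted-1-like 4 (GRMZM2G452178), knotted-1-like 5 (GRMZM5G832409) and knotted-1-like 11 (GRMZM2G094241) did not exceed 0.0532 FPKM. Knotted-1-like 1 (GRMZM2G159431) had 0.484 and 0.566 FPKM in W, 1.40 and 0.790 FPKM in S1 and 0.673 and 0.698 FPKM in S3 and could not be tested.

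The other 3 KNOX genes were among the most abundant regulators. Knotted-1-like 2 (GRMZM2G055243) had 173 and 182 FPKM in W, 223 and 248 FPKM in S1 and 106 and 144 FPKM in S3, so S1 was highest, S3 lowest and no conditions overlapped. The log2 difference for S3 minus S1 was −0.92 ± 0.21 (adjusted p = 0.0121), short of the limit. Without S3 replicate 2 it was −1.14, under upper-quartile scaling −1.03 and under median-of-ratios scaling −1.06, all 3 called.

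The description knotted-1-like 7 is shared by 2 genes, whose courses were set side by side. GRMZM2G370332 had 56.8 and 58.6 FPKM in W, 52.8 and 60.2 FPKM in S1 and 29.4 and 32.1 FPKM in S3, with S3 below all other libraries. The log2 difference was −0.89 ± 0.15 for S3 minus W (adjusted p = 0.00314), not called as measured, and between −1.05 and −1.12 and called under the 3 scalings. GRMZM2G433591 had 27.0 and 28.1 FPKM in W, 27.0 and 31.5 FPKM in S1 and 25.1 and 29.2 FPKM in S3, where all conditions overlapped. Its log2 difference for S3 minus W was −0.02, with a 95% interval of −0.39 to 0.35. The difference between the 2 genes was not tested, and they may share reads.

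WUSCHEL-related homeobox genes, known from stem cell niches and organ margins, gave no testable value. Of 7 such genes 6 were listed at 0 in every library and the last stayed at or below 0.0208 FPKM. Another 2 genes were counted as homeobox, of which knotted1 induced1 (GRMZM2G158394) matched only through the word knotted. It had 37.8 and 14.4 FPKM in W, 22.2 and 61.2 FPKM in S1 and 19.4 and 44.3 FPKM in S3. Replicates differed by more than 2-fold in each condition, and the log2 difference of 0.64 ± 0.60 for S1 minus W (adjusted p = 0.517) was about the size of its error. Homeobox3 (GRMZM2G314546) had 10.2 and 13.98 FPKM in W, 16.1 and 18.9 FPKM in S1 and 15.2 and 18.3 FPKM in S3, was above W in all 4 stressed libraries, and was not called (0.51 ± 0.20 for S1 minus W, adjusted p = 0.124).

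Of the 29 MYB genes tested, 3 were called higher (10.3%, against 7.51% of all genes tested) and 1 lower (3.45%, against 1.54%) in S1 than in W. Between S3 and S1, 4 were called higher (13.8%, against 9.17%) and 6 lower (20.7%, against 9.22%). Between S3 and W, 8 were called higher (27.6%, against 13.3%) and 5 lower (17.2%, against 8.7%). Over all genes tested, calls at the second step thus also went in both directions.

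Of the genes that were higher at the first stress, the one described as TaMYB1, a name from wheat (GRMZM5G803308), had 0.580 and 0.635 FPKM in W, 9.23 and 8.01 FPKM in S1 and 20.03 and 13.0 FPKM in S3. The conditions did not overlap and stepped upward. The fit gave a log2 difference of 2.58 ± 0.22 for S1 minus W (adjusted p = 0.000359), and that for S3 minus S1 was 0.84 ± 0.22 (adjusted p = 0.0206), under the 2-fold limit. Without S3 replicate 2 the second step was 1.13 and called.

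The R2R3MYB-domain gene GRMZM2G006352 had 2.29 and 2.19 FPKM in W, 18.3 and 13.3 FPKM in S1 and 8.84 and 12.2 FPKM in S3. It was highest in S1 and remained above W in S3, with a log2 difference of 2.36 ± 0.21 for S1 minus W (adjusted p = 0.000469) and 1.82 ± 0.21 for S3 minus W (adjusted p = 0.000546). For S3 minus S1 it was −0.54 ± 0.21 (adjusted p = 0.0824), not called.

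Zm38 (GRMZM2G084583), isolated in maize by likeness to the anthocyanin activator C1, was the only tested gene here called in opposite directions at the 2 steps. It had 29.3 and 24.0 FPKM in W, 60.7 and 62.4 FPKM in S1 and 13.99 and 14.6 FPKM in S3. No conditions overlapped, and S3 lay below W. In log2 terms the difference was 1.18 ± 0.16 for S1 minus W (adjusted p = 0.00259), −2.03 ± 0.16 for S3 minus S1 (adjusted p = 0.000189) and −0.85 ± 0.16 for S3 minus W (adjusted p = 0.00421), the last under the 2-fold limit and past it under the 3 scalings, at between −1.01 and −1.07. Its relative Zm1 (GRMZM5G833253) did not exceed 0.0567 FPKM in any library.

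The gene GRMZM2G158117, described as a SANT/MYB protein, declined at each stress. It had 10.0 and 6.38 FPKM in W, 1.42 and 3.20 FPKM in S1 and 0 and 0.129 FPKM in S3, with no overlap. The log2 difference was −1.50 ± 0.30 for S1 minus W (adjusted p = 0.0148), −1.58 ± 0.30 for S3 minus S1 (adjusted p = 0.00577) and −3.08 ± 0.30 for S3 minus W (adjusted p = 0.000244). The first step, the only decrease called between S1 and W in all 55 genes, did not hold without S1 replicate 1 (adjusted p = 0.0751) or without W replicate 1 (adjusted p = 0.103).

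Another 4 MYB genes were not called at the first stress and rose in S3. The R2R3MYB-domain gene GRMZM2G160840 had 0.0611 and 0 FPKM in W, 0.227 and 0.245 FPKM in S1 and 25.5 and 9.26 FPKM in S3, a log2 difference of 3.74 ± 0.39 for S3 minus S1 (adjusted p = 0.000508). That gene entered the test only through S3, which fixed the direction of its call. GRMZM2G405094, of the same description, had 3.38 and 4.10 FPKM in W, 5.92 and 5.69 FPKM in S1 and 57.5 and 24.96 FPKM in S3, a log2 difference of 2.52 ± 0.34 (adjusted p = 0.00142). In both genes all S3 values were above all others and S3 replicate 1 exceeded replicate 2 by more than 2-fold.

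The P-type R2R3 Myb gene GRMZM2G031323 had 0.199 and 0.0250 FPKM in W, 1.17 and 0.448 FPKM in S1 and 11.3 and 8.34 FPKM in S3. MYB-IF25 (GRMZM2G051528) had 0.551 and 0.239 FPKM in W, 1.40 and 0.638 FPKM in S1 and 7.60 and 6.62 FPKM in S3. Both were ordered W, S1, S3 without overlap, and only the later step was called, with a log2 difference for S3 minus S1 of 2.60 ± 0.25 for GRMZM2G031323 (adjusted p = 0.000382) and 2.03 ± 0.23 for GRMZM2G051528 (adjusted p = 0.000759). With 0.1 in place of 1 added to the FPKM, the first step of GRMZM2G031323 was called as well (2.11, adjusted p = 0.0383). Neither GRMZM2G031323 nor GRMZM2G051528 would have been tested without the S3 libraries. The other 7 genes of the P-type description were too low to test.

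**Figure D4:**
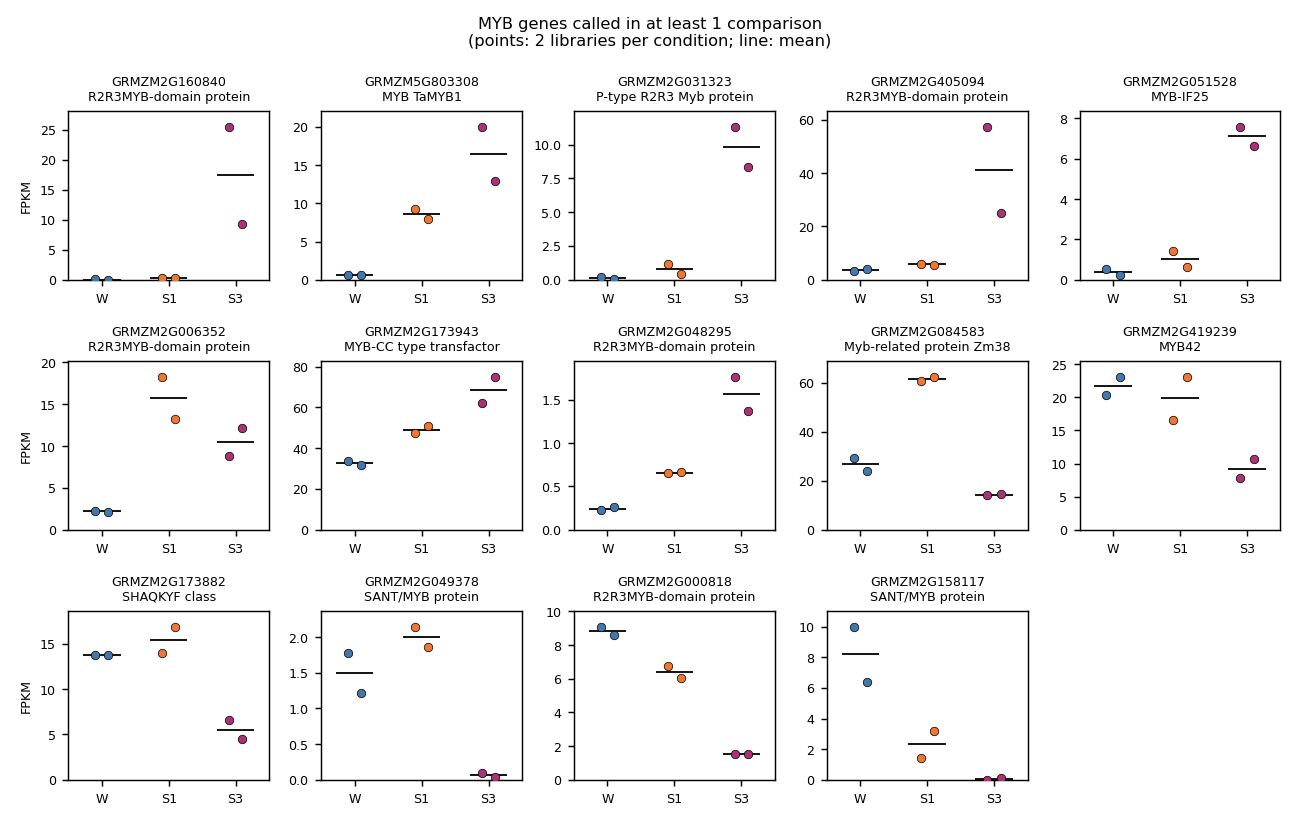
FPKM (vertical axes, linear from 0, each panel on its own scale) of the MYB genes with a call, with W, S1 and S3 from left to right, a point per library and a line at the mean. Zm38 peaks in S1 (60.7 and 62.4 FPKM), GRMZM2G160840, GRMZM2G031323, GRMZM2G405094 and MYB-IF25 stand high in S3 alone, and GRMZM2G158117 is at 0 and 0.129 FPKM in S3.

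A group of 4 MYB genes were not called at the first stress and fell in S3. The R2R3MYB-domain gene GRMZM2G000818 had 9.10 and 8.59 FPKM in W, 6.78 and 6.07 FPKM in S1 and 1.54 and 1.53 FPKM in S3, a log2 difference of −1.55 ± 0.16 for S3 minus S1 (adjusted p = 0.000463). The SANT/MYB gene GRMZM2G049378 had 1.77 and 1.22 FPKM in W, 2.15 and 1.86 FPKM in S1 and 0.0946 and 0.0466 FPKM in S3, a log2 difference of −1.49 ± 0.19 (adjusted p = 0.00105), which was −0.95 and not called with 2 added to the FPKM. Both were at their lowest in S3, without overlap with either other condition.

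MYB42 (GRMZM2G419239), a repressor of lignin genes, had 20.4 and 23.0 FPKM in W, 16.6 and 23.1 FPKM in S1 and 7.76 and 10.7 FPKM in S3. The SHAQKYF-class gene GRMZM2G173882 had 13.7 and 13.8 FPKM in W, 13.9 and 16.9 FPKM in S1 and 6.58 and 4.45 FPKM in S3. Each was lower in S3 than in every other library. The log2 difference for S3 minus S1 was −1.35 ± 0.20 for GRMZM2G173882 (adjusted p = 0.00206) and −1.02 ± 0.22 for MYB42 (adjusted p = 0.00906). The MYB42 call was lost without S1 replicate 2 (−0.79), without S3 replicate 1 (−0.81, and −0.95 for S3 minus W) or with 2 added to the FPKM (−0.95 for S3 minus S1), and that of GRMZM2G173882 for S3 minus W, −1.20, was lost without S3 replicate 2 (−0.96). MYB31 (GRMZM2G050305), which shares this repressor role in maize, had 6.19 and 4.70 FPKM in W, 12.6 and 7.13 FPKM in S1 and 10.7 and 7.40 FPKM in S3 and was not called, with a log2 difference of 0.72 ± 0.28 for S1 minus W (adjusted p = 0.132).

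Only the comparison of S3 with W called 2 further MYB genes. The MYB-CC gene GRMZM2G173943 had 33.6 and 31.6 FPKM in W, 47.6 and 50.6 FPKM in S1 and 62.2 and 75.1 FPKM in S3, in ordered steps without overlap. GRMZM2G048295 had 0.224 and 0.261 FPKM in W, 0.650 and 0.664 FPKM in S1 and 1.77 and 1.37 FPKM in S3, likewise ordered. This second gene entered the test only through S3, which fixed the direction of its call. Both changes for S3 minus W were close to the limit, at 1.04 ± 0.16 for GRMZM2G173943 (adjusted p = 0.00189) and 1.04 ± 0.17 for GRMZM2G048295 (adjusted p = 0.00263). Neither was called under the 3 scalings, where the first was between 0.81 and 0.88 and the second between 0.85 and 0.97. Without S3 replicate 2 the first was 0.91, and without S3 replicate 1 the second was 0.93.

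The most abundant of all these genes in W, GRMZM2G305856, had 292 and 263 FPKM in W, 275 and 267 FPKM in S1 and 657 and 338 FPKM in S3. Both S3 values were above the rest, but the S3 replicates lay so far apart that the log2 difference of 0.76 ± 0.32 for S3 minus W (adjusted p = 0.0902) was not called. Without S3 replicate 2 it was 1.24 and called, and without S3 replicate 1 it was 0.29 and not called. The SANT/MYB gene AC204212.4_FG001 was similarly divided, with 62.1 and 41.7 FPKM in W, 76.1 and 63.8 FPKM in S1 and 22.5 and 62.8 FPKM in S3. Its log2 difference for S3 minus S1 was −0.87 ± 0.43 (adjusted p = 0.147), and without S3 replicate 2 it was −1.59 and called.

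The remaining tested MYB genes were called in no comparison. The 4 single myb histones, which bind telomeric DNA in maize, stayed between 6.96 and 14.5 FPKM in all libraries. MYB94 (GRMZM2G056407), known from cuticular wax synthesis in Arabidopsis, had 3.01 and 1.81 FPKM in W, 2.57 and 1.67 FPKM in S1 and 4.57 and 5.65 FPKM in S3. Its S3 values were above all others and its log2 difference for S3 minus S1, 0.98 ± 0.24 (adjusted p = 0.0162), was just under the limit, and was called without S1 replicate 1 (1.19) or without S3 replicate 1 (1.11). For S3 minus W it was 0.86 and, without W replicate 1, 1.12 and called. MYB59 (GRMZM2G048136) had 15.5 and 10.9 FPKM in W, 7.54 and 5.94 FPKM in S1 and 6.66 and 8.83 FPKM in S3, below W in every stressed library, with −0.86 ± 0.22 for S1 minus W (adjusted p = 0.0391), under the fold limit. Without W replicate 2 it was −1.10 and called. GAMYB (GRMZM2G028054), a gibberellin-regulated MYB of cereals, ranged from 6.90 to 10.5 FPKM and the GAMYB-binding protein gene GRMZM2G038691 from 13.9 to 19.5 FPKM, both without a call.

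Of the 3 bHLH genes tested, 1 was called. PTF1 (GRMZM2G024530), known in maize from tolerance of phosphate starvation, had 7.01 and 7.45 FPKM in W, 15.9 and 18.4 FPKM in S1 and 9.03 and 9.60 FPKM in S3. It was highest in S1 and in S3 lay between S1 and W, without overlap. The fit gave a log2 difference of 1.14 ± 0.15 for S1 minus W (adjusted p = 0.00277) and −0.81 ± 0.15 for S3 minus S1 (adjusted p = 0.00562), of which the second was under the 2-fold limit.

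The bHLH gene GRMZM2G144275 had the reverse shape, with 24.7 and 20.6 FPKM in W, 13.0 and 14.02 FPKM in S1 and 21.3 and 20.02 FPKM in S3. S1 was below both other conditions, but the log2 difference of −0.70 ± 0.16 for S1 minus W (adjusted p = 0.0225) was not called. GRMZM2G017586, the most abundant bHLH gene, had 66.2 and 55.3 FPKM in W, 76.4 and 75.7 FPKM in S1 and 49.4 and 46.8 FPKM in S3. It was highest in S1 and lowest in S3, with a log2 difference of −0.65 ± 0.16 for S3 minus S1 (adjusted p = 0.017), again under the limit.

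MADS genes were mostly absent from leaves and gave no call. Of 17, 6 were listed at 0 in every library, 8 stayed under the limit and 3 were tested. MADS47 (GRMZM2G059102) had 6.43 and 6.99 FPKM in W, 5.50 and 5.54 FPKM in S1 and 10.1 and 9.66 FPKM in S3, and MADS16 (GRMZM2G110153) had 2.76 and 3.15 FPKM in W, 2.64 and 1.87 FPKM in S1 and 4.75 and 4.48 FPKM in S3. Both were highest in S3 without overlap, under the 2-fold limit for S3 minus S1 at 0.74 ± 0.15 (adjusted p = 0.00772) for MADS47 and 0.80 ± 0.18 (adjusted p = 0.0124) for MADS16. With 0.1 in place of 1 added to the FPKM the MADS16 change was 1.02 and called. MADS26 (GRMZM2G105387), whose rice namesake is known from stress responses, ranged from 1.43 to 2.38 FPKM, with a log2 difference for S3 minus W of 0.05 and a 95% interval of −0.35 to 0.45.

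Other transcription factor families, found by description in the same table, were counted for comparison. For S3 against S1, where 9.17% of all genes tested were called higher and 9.22% lower, 6 of 14 tested NAC genes were called higher and 0 lower. The counts were 0 higher and 5 lower of 19 WRKY genes, 1 higher and 5 lower of 23 AP2 or ERF genes, 2 higher and 9 lower of 61 zinc finger genes, 1 higher and 0 lower of 7 heat shock factors and 0 and 0 of 2 GRAS genes. For S1 against W, where 7.51% of all genes tested were called higher and 1.54% lower, 3 NAC, 6 WRKY, 8 AP2 or ERF, 10 zinc finger, 3 heat shock factor and 2 GRAS genes were called higher, and 2 zinc finger genes were the only ones of these lists called lower. Differences between the families were not tested.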

How the data were processed

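Leaf RNA of 6 libraries (W, S1 and S3, 2 replicates each) was compared. The authors mapped reads to B73 RefGen_v2 and used cuffdiff to deposit FPKM values per gene, W and S1 in a first run and S3 in a second (CASAVA 1.8.2 per the submitters' processing notes). Columns of the authors' fold changes and q-values were not used. S3 values were scaled by 0.993, the median over genes of the quotient of S1 levels in the 2 runs (91.1% of genes lay within 0.5% of it).

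log2(FPKM + 1) was fitted with limma 3.58.1 (lmFit, eBayes with trend; R 4.3.3), with 1 mean per condition, on the 20130 of 39634 genes that reached 1 FPKM in 2 or more libraries. Benjamini-Hochberg adjustment ran over all of them, and tests were two-sided. The fit was checked on simulated data. Figures used Python 3.11.15 and matplotlib 3.10.9.

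The gene families, lists and tests were chosen with earlier results of these data known. Up to 3 called genes per family, comparison and direction with the largest non-overlapping changes, the gene highest in W per family and genes carrying a maize gene name were named by rule (40 genes). All others named complete their family and were chosen after their values were seen. Of the 146 genes, 101 matched a RefSeq synonym (Zm-B73-REFERENCE-NAM-5.0, used for names only). Promoter and protein sequences were not analysed here. Whether the counting split reads between near-identical paralogs was not tested. Alternatives were other pseudocounts, filters, thresholds and scalings, no run adjustment, only the 4 libraries compared, a replicate block and each library left out.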

Additional observations from a re-analysis of the deposited data

How the results depend on the processing

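Of the 48 calls made on the tested genes over the 3 comparisons, 37 held under every alternative tried for them, and no call changed direction. The single gene called lower in S1 than in W, GRMZM2G158117, made that count unstable. It was 0 with 0.1 added to the FPKM, 0 with no filter on low values and 0 at an adjusted p of at most 0.01, and it was 3 with no fold-change threshold. With 1 library left out it ranged from 0 to 2, at 0 without S1 replicate 1 or W replicate 1 and 2 without W replicate 2. Dropping the fold-change threshold also raised the counts to 17 higher and 13 lower for S3 against S1, and to 10 lower for S3 against W. Over all genes tested, that setting called 21.8% higher and 15.3% lower for S3 against S1. It called 14.9% lower for S3 against W and 4.68% lower for S1 against W. Every other count for the 55 genes stayed within 1.5 times its value. Deviations from the condition means correlated weakly between same-numbered libraries, at 0.062 (S3, S1), −0.087 (S3, W) and 0.143 (S1, W). According to the paper, read length differed by replicate number in every condition. The correlations therefore cannot decide whether libraries of the same number were paired or shared a batch. Blocking on the replicate number left the counts at 9 higher and 1 lower for S1 against W, 9 and 8 for S3 against S1 and 15 and 6 for S3 against W, and changed no call of the 55 tested genes. The deposited FPKM values do not carry library depth, and how far low counts limit the genes near 1 FPKM was not measured.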
